A study of Mus musculus with 6 samples.

Results

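P2Y receptors are G protein-coupled receptors of the cell surface that sense nucleotides released by cells. The 8 genes P2ry1, P2ry2, P2ry4, P2ry6, P2ry10, P2ry12, P2ry13 and P2ry14 were taken by symbol from a table of 36727 genes, and all 8 were matched. The family was chosen by the measured level of P2ry14, which was lower in all 3 libraries of the high litter size group, so its levels in the 2 groups are given as a description, with no test. The other 7 genes came in by family name.

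The libraries were made from polyadenylated RNA of ovarian tissue, labelled as taken in estrous phase, from adult female F4 inbred Swiss albino mice aged 135 to 140 days. High litter size replicates 1, 3 and 4 were set against low litter size replicates 1, 2 and 5, and litter size is the only difference the labels give. The labels do not say whether each sample was 1 animal, so the p-values take in only sample-to-sample spread, part or all of which may be technical. The series title asks which ovarian genes are related to fitness.

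Total estimated counts ran from 17620903 to 24758222 per library. The libraries differed in how much ovarian RNA they held. Inha, the inhibin subunit of granulosa cells, had 32, 34 and 3959 counts in high 1, 3 and 4 and 3156, 23 and 2817 counts in low 1, 2 and 5. The summed level of 10 oocyte markers was 2.15, 3.50 and 69.5 CPM in high-litter libraries and 15.4, 3.95 and 48.3 CPM in low-litter libraries. Of these 10 markers, 4 had no counts in high 1, 2 had none in high 3 and 3 had none in low 2. High 1, high 3 and low 2 thus held few ovarian transcripts. For some genes the results below are also given without these 3 libraries, in these alone, or both. CPM are counts scaled to a common library total, after normalization by the trimmed mean of M-values (TMM).

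P2ry14 is the receptor for UDP-glucose and related UDP-sugars, and it couples to inhibitory G proteins. It is known from immune cells and from epithelia, that of the female reproductive tract among them. P2ry6 answers to UDP, P2ry2 to ATP and UTP, and P2ry4 to UTP among others. P2ry1, P2ry12 and P2ry13 are the ADP receptors, the first acting through phospholipase C and the other two through inhibitory G proteins. P2ry10, despite its name, answers to lysophospholipids. Outside the cell, ectonucleotidases cut nucleotides stepwise to nucleosides, so they set which receptor is reached.

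P2ry14 (ENSMUSG00000036381, protein-coding) lies on the minus strand of chromosome 3 from 59113855 to 59153618 (GRCm38, GENCODE M21). The annotation gives it 9 transcripts, 8 of them protein-coding, with 9 different 5′ ends. The values here are per gene and do not tell these starts apart. The sequences before 2 of its RefSeq starts are shown, because P2ry14 chose the family and these starts follow a long run of bases in no annotated exon. Both hold a motif match, while a match before another of its starts is not shown. The sequences are from RefSeq on GRCm38.p6, minus strand, cut to bases that lie in no annotated exon of P2ry14. The capitals mark matches to TGANTCA, with N any base. This pattern is wider than the site of the AP-1 factors Fos and Jun, TGACTCA or TGAGTCA. The first sequence holds TGACTCA, and the second holds TGAATCA, which matches the wider pattern alone.
P2ry14 start at 59153492, chr3:59153619-59153742: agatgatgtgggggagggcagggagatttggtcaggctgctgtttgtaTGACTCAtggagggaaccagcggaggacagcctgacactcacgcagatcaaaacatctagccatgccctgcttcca
P2ry14 start at 59131328, chr3:59131329-59131578: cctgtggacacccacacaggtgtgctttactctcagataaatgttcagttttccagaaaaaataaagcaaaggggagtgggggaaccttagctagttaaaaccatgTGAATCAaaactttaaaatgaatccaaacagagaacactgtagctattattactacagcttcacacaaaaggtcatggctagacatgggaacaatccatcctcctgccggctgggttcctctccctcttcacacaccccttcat

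The promoter windows searched ran from 250 bases before to 50 bases after a RefSeq start, on both strands, and they were given for 7 of the 8 genes, in 12 windows. TGANTCA was found in 3 of these windows, 2 of P2ry14 and 1 of P2ry10, and in 7.81% of all 32851 windows. TATAAA was found in 1 window of P2ry14 and in 13.6% of all, and GAGGAAGT, a PU.1 motif, in 1 window of P2ry10 and in 3.2% of all. The palindromic oestrogen response element, found in 0.07% of all windows, was in none of the 12, nor were TGACGTCA (1.79%), CAAGGTCA (1.56%) and the progesterone receptor element (0.475%). TGANTCA reads the same on both strands, and no 2 different motifs overlapped in the 12 windows. A match is a description of letters in a window and says nothing of binding.

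P2ry14 had 154, 229 and 203 counts in high 1, 3 and 4 and 1041, 1103 and 2712 counts in low 1, 2 and 5. These were 7.87, 14.3 and 10.2 CPM in high-litter libraries and 60.1, 58.8 and 106 CPM in low-litter libraries. The groups did not overlap, and the lowest low library stood above the highest high library. The means were 10.8 ± 3.25 CPM in high-litter samples and 74.9 ± 26.7 CPM in low-litter samples (SD, n = 3), a 6.94-fold higher mean in the low group. The fitted log2 fold change, high minus low, was -2.80 (SE 0.35), and its sign was fixed by the choice of the gene. It was -3.05 with the 3 libraries of few ovarian transcripts left out, which sets high 4 against low 1 and low 5, and -2.44 in those 3 libraries alone, which sets high 1 and high 3 against low 2. Leaving out each library in turn gave -3.05 to -2.46. In bulk tissue, fewer cells of a type and less RNA per cell cannot be told apart.

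**Figure D1:**
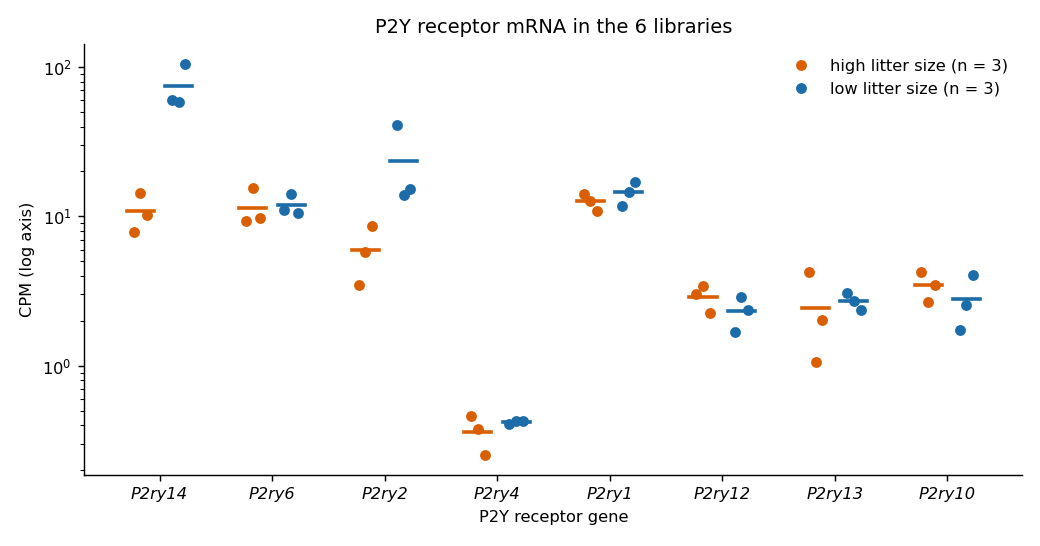
CPM of the 8 P2Y receptor genes (log axis) in 3 high (orange) and 3 low (blue) litter size libraries, with points for libraries and bars for group means. The groups of P2ry14 (7.87 to 14.3 against 58.8 to 106 CPM) and P2ry2 (3.48 to 8.60 against 14 to 40.8 CPM) do not overlap, while those of the other 6 genes do.

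P2ry2, the receptor of ATP and UTP that is common in epithelia, was the other member whose groups did not overlap. P2ry2 lies on chromosome 7 from 100996568 to 101012866 (minus strand). It had 3.48, 5.81 and 8.60 CPM in high 1, 3 and 4 and 40.8, 14 and 15.2 CPM in low 1, 2 and 5. Low 1 stood far above the other two low libraries, and high 1 was the lowest of all. The means were 5.96 ± 2.56 and 23.3 ± 15.2 CPM (SD, n = 3), with a log2 fold change of -1.97 (SE 0.55, 95% interval -3.28 to -0.65). It did not pass the quasi-likelihood test of edgeR over all 16455 genes tested (adjusted p = 0.229, unadjusted p = 0.00977, lower in 3 of 3 high libraries), and it passed with DESeq2 (adjusted p = 0.0166). Over all alternatives the adjusted p ran from 0.0166 to 0.953. The log2 fold change was -1.73 without the 3 libraries of few ovarian transcripts and -1.62 in these alone, and it was -1.30 without low 1.

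Of the 7 members besides P2ry14, 6 had enough counts to be tested and 0 were called by edgeR at an adjusted p under 0.05, where 1 of 16455 genes (0.00608%) was called. At an unadjusted p under 0.05, edgeR gave 1 of the 6, against 14.4% of all genes (7.82% lower and 6.56% higher in the high group). DESeq2 called 1 of the 6, against 6.56% of genes, and limma voom 0, against 0.0182%, with 1 at an unadjusted p under 0.05. The groups did not overlap for 1 of the 6, against 19.5% of genes, so that share is near the background. In each case the gene was P2ry2. The median log2 fold change of the 6 was -0.11, and that of all tested genes was 0.068.

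P2ry6, the UDP receptor, lies on chromosome 7 as P2ry2 does, from 100937630 to 100974649. It had 9.25, 15.4 and 9.75 CPM in high-litter samples and 11.0, 14.2 and 10.6 CPM in low-litter libraries. Its highest value was in high 3, and the groups overlapped throughout. The log2 fold change was -0.058 (95% interval -0.78 to 0.67, edgeR adjusted p = 0.947), and it was 0.056 without high 1, 0.014 without high 4 and 0.085 without low 2.

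P2ry4, which answers to UTP as P2ry2 does, lies on the X chromosome from 100590154 to 100594869 and was barely detected. It had 9, 6 and 5 counts in high-litter samples and 7, 8 and 11 counts in low-litter libraries, or 0.251 to 0.460 and 0.404 to 0.429 CPM. It did not reach the minimum count and was not tested.

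The ADP receptors did not separate the groups. P2ry1, which starts platelet shape change and is also found in many other tissues, lies on chromosome 3 from 61002795 to 61008982. It had 14.2, 12.7 and 10.9 CPM in high-litter samples and 11.8, 14.6 and 17.1 CPM in low-litter libraries. Its log2 fold change was -0.20 (95% interval -0.81 to 0.40, edgeR adjusted p = 0.759). It had the smallest range over the 6 libraries among the tested members, 1.58-fold from lowest to highest, where P2ry14 spanned 13.4-fold and P2ry2 11.7-fold.

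P2ry12, the platelet and microglial ADP receptor that is the target of clopidogrel, had 3.02, 3.43 and 2.26 CPM in high-litter samples and 1.68, 2.88 and 2.38 CPM in low-litter libraries. The log2 fold change was 0.33 (95% interval -0.64 to 1.29, edgeR adjusted p = 0.754). P2ry13, an ADP receptor of myeloid cells, had 4.24, 1.06 and 2.01 CPM against 3.06, 2.72 and 2.38 CPM. Its high libraries spanned 4.0-fold and enclosed all 3 low libraries (log2 fold change -0.15, 95% interval -1.49 to 1.18, edgeR adjusted p = 0.923, 0.20 without high 3 and -0.82 without high 1). At 17 to 83 counts per library and with the spread between libraries, changes within these wide intervals were not detectable.

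The cells in which P2ry12 and P2ry13 are best known were compared by their markers. The 13 macrophage markers, all detected in every library, summed to 1107 to 1945 CPM in high-litter samples and 940 to 1184 CPM in low-litter samples. Of the 9 platelet and megakaryocyte markers, 3 had enough counts to be tested, and 2, Gp1bb among them, had no counts in some libraries. The sum was 15.9 to 106 CPM in high-litter samples and 13.5 to 20.5 CPM in low-litter samples. The upper end came from Ppbp, which had 0.307, 11.3 and 93.4 CPM in high 1, 3 and 4 and 0.116 to 0.373 CPM in the low libraries. The part of these cells in the values of P2ry12 and P2ry13 was not tested.

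P2ry10, the lysophospholipid receptor of lymphocytes, lies on the X chromosome from 107088492 to 107104974. It had 4.24, 2.68 and 3.47 CPM in high-litter samples and 1.73, 2.56 and 4.05 CPM in low-litter libraries (log2 fold change 0.31, 95% interval -0.77 to 1.39, edgeR adjusted p = 0.792). The 12 lymphocyte markers summed to 146 to 344 CPM in high-litter samples and 93.7 to 138 CPM in low-litter samples. Its neighbour and paralog P2ry10b had 1.2 to 3.0 CPM over the 6 libraries (log2 fold change -0.26). Reads shared by such paralogs are split by estimation, so both values are uncertain.

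Levels of different genes were set side by side as CPM per kilobase of the longest protein-coding transcript. In the high group P2ry6 ranked first in 3 of 3 libraries, at 5.90 ± 1.76 CPM per kb (SD, n = 3), followed by P2ry14 at 4.36 ± 1.31 and P2ry1 at 3.24 ± 0.43 CPM per kb. The ranges of neighbours in this order overlapped, 4.75 to 7.92 for P2ry6, 3.18 to 5.77 for P2ry14 and 2.79 to 3.66 for P2ry1. P2ry2 followed at 1.98 ± 0.85 CPM per kb, then P2ry12 at 1.24, P2ry10 at 1.2, P2ry13 at 0.964 and P2ry4 at 0.0816 CPM per kb.

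In the low group P2ry14 ranked first in 3 of 3 libraries, at 30.2 ± 10.8 CPM per kb (SD, n = 3). The next were P2ry2 at 7.75 ± 5.03, P2ry6 at 6.14 ± 1.0 and P2ry1 at 3.73 ± 0.69 CPM per kb, and P2ry2 and P2ry6 overlapped. P2ry13, P2ry12 and P2ry10 lay close together at 1.08, 0.986 and 0.963 CPM per kb, and P2ry4 was last in every library of both groups. P2ry14 made up 18.4 to 26.5% of the summed level of the family in high-litter libraries and 49.4 to 69.9% in the low libraries. The ratio of P2ry14 to P2ry6 was 0.669, 0.729 and 0.822 in high 1, 3 and 4 and 4.28, 3.26 and 7.84 in low 1, 2 and 5. The rank, share and ratio of P2ry14 rest on the levels that chose the family, so their group difference is no further result. Without P2ry14, the family summed to 13.7 to 16 CPM per kb in high-litter samples and 18.4 to 24.9 CPM per kb in low-litter libraries. These sums include P2ry2, at 1.15 to 2.86 and 4.64 to 13.6 CPM per kb, the other member whose groups did not overlap. The place of P2ry14 depends on the length taken. Over the union of its annotated exons, 11059 bases against 2476 for the longest coding transcript, it ranked 5 to 7 in high-litter libraries and 1 to 2 in the low libraries. Its share of the family was then 5.69 to 9.34% and 21.8 to 39.1%.

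**Figure D2:**
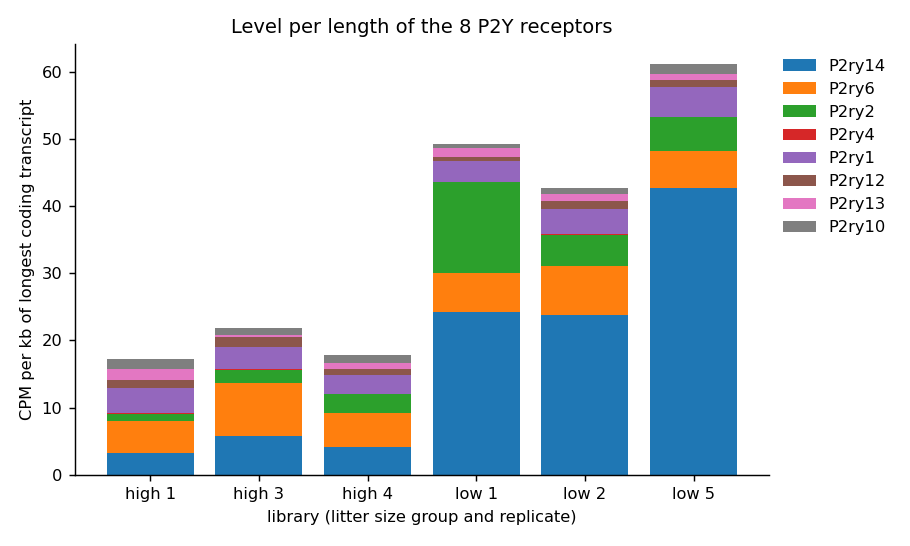
Stacked CPM per kb of the longest protein-coding transcript for the 8 P2Y receptor genes, 1 bar per library. P2ry14 takes 18.4 to 26.5% of the bar in high-litter samples and 49.4 to 69.9% in the low libraries, and the rest of the family sums to 13.7 to 24.9 CPM per kb in all 6. The family was chosen by the level of P2ry14, so its share is a description.

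P2ry14, P2ry13 and P2ry12 stand in a row on chromosome 3 with the related orphan receptor Gpr171, all on the minus strand and all inside the span of Med12l, a Mediator subunit gene on the plus strand (59005825 to 59318682). The 5′ ends of P2ry13 (59207892 to 59210882) and P2ry12 (59216272 to 59262871) lie 57.3 kb and 109.3 kb beyond the 5′ end of P2ry14. P2ry14 and P2ry13 share 0 exonic bases with Med12l, and P2ry12 shares 9. No source used here says whether the counting kept strand.

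The groups of Med12l and Gpr171 overlapped. Med12l had 5.93, 23.0 and 7.04 CPM in high-litter samples and 3.0, 6.88 and 5.92 CPM in low-litter libraries (log2 fold change 1.18, edgeR adjusted p = 0.44, and 0.30 without high 3). Gpr171, a lymphocyte receptor, had 1.94, 1.87 and 1.71 against 0.635, 2.03 and 2.38 CPM (log2 fold change 0.13, adjusted p = 0.935 with edgeR).

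Igsf10, an immunoglobulin superfamily gene past the end of the row (59316735 to 59344394), was the neighbour whose groups did not overlap in the direction of P2ry14. It had 63.7, 56.1 and 49.1 CPM in high-litter samples and 93.9, 87.9 and 193 CPM in low-litter libraries (log2 fold change -1.15, SE 0.34, edgeR adjusted p = 0.253). The log2 fold change was -0.58 in the 3 libraries of few ovarian transcripts alone and -1.58 with them left out. Such an order, lower in every high library, was seen in 10.8% of all genes.

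**Figure D3:**
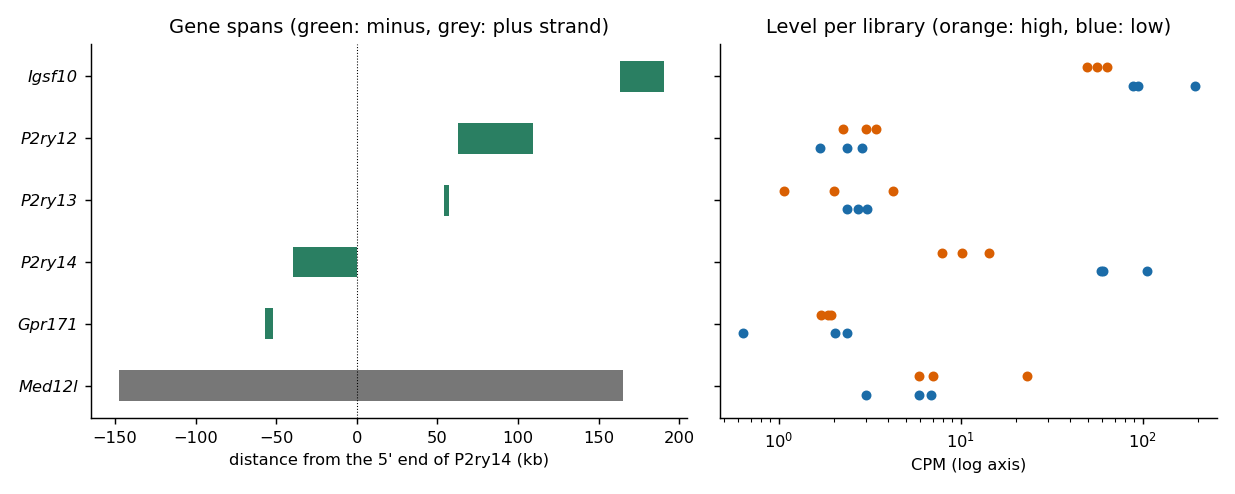
Left, spans of the genes around P2ry14 in kb from its 5′ end (green minus strand, grey plus strand); right, their CPM per library on a log axis (orange high, blue low). P2ry14 and Igsf10 are lower in the 3 high libraries, and P2ry13, P2ry12, Gpr171 and Med12l overlap between groups.

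The genes whose pattern was most like P2ry14 were found by the root mean square difference in log2 CPM, centred per gene, over the 6 libraries, among 14509 named genes with a mean of at least 1 CPM. The closest was Col6a4, a collagen VI chain, at 0.25 log2 units, with 133, 306 and 184 CPM in high-litter samples and 1673, 1269 and 2607 CPM in low-litter libraries. It was followed by Ramp3, a partner of the adrenomedullin receptor, at 0.27, Ccl11, the eosinophil chemokine eotaxin, at 0.36, Chst13, a chondroitin sulfotransferase, at 0.40, and Lgr6, an R-spondin receptor, at 0.42. The median over all compared genes was 1.49. Among the members, P2ry2 was the closest to P2ry14, at 0.86 and place 207 of 14509, and P2ry1, P2ry6, P2ry13, P2ry12 and P2ry10 stood at 1.34, 1.40, 1.49, 1.60 and 1.63. These genes were picked for this likeness, so their own group difference is not a further result.

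Simple epithelium markers were lower in the high libraries, as were P2ry14 and P2ry2. The 9 markers, all detected in every library, summed to 528, 548 and 981 CPM in high 1, 3 and 4 and 4564, 2795 and 2015 CPM in low 1, 2 and 5. The groups of 7 of the 9 did not overlap, all lower in the high libraries, as in 10.8% of all genes. Stratified epithelium markers (7) lay the other way, with sums of 181, 100.4 and 494 CPM in high 1, 3 and 4 and 17.6, 15.4 and 3.43 CPM in low 1, 2 and 5. All 7 had positive log2 fold changes, with a median of 4.46, and Dsc3 was at 0 counts in high 3 and low 2. Within the low group the epithelial sum was highest in low 1, as was P2ry2, while P2ry14 was highest in low 5, where the epithelial sum was lowest of the 3. Smooth muscle and pericyte markers (10) summed to 3468 to 10634 CPM in high-litter samples and 8079 to 15731 CPM in low-litter samples. Stroma markers (9) summed to 7035 to 16698 CPM in high-litter samples and 9998 to 22546 CPM in low-litter samples. Both sums were highest in low 5, and high 1 had the second highest stroma sum together with the lowest P2ry14. Granulosa markers (8) summed to 36.9, 27.1 and 477 CPM in high-litter samples and 453, 51.8 and 367 CPM in low-litter libraries, with Fshr at 0 counts in high 1 and high 3 and Amh in low 2, and P2ry14 in low 2, at 58.8 CPM, was close to its level in low 1. In likeness to P2ry14 over the 6 libraries, the epithelial markers Krt7, Krt8 and Epcam stood at places 61, 121 and 163 of 14509. The stroma marker Col6a3 stood at place 71 and the muscle marker Myh11 at place 1640, and no other marker of these lists was placed. These places take in the group difference that chose P2ry14. The part of any of these cells in the levels of P2ry14 and P2ry2 was not tested.

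**Figure D4:**
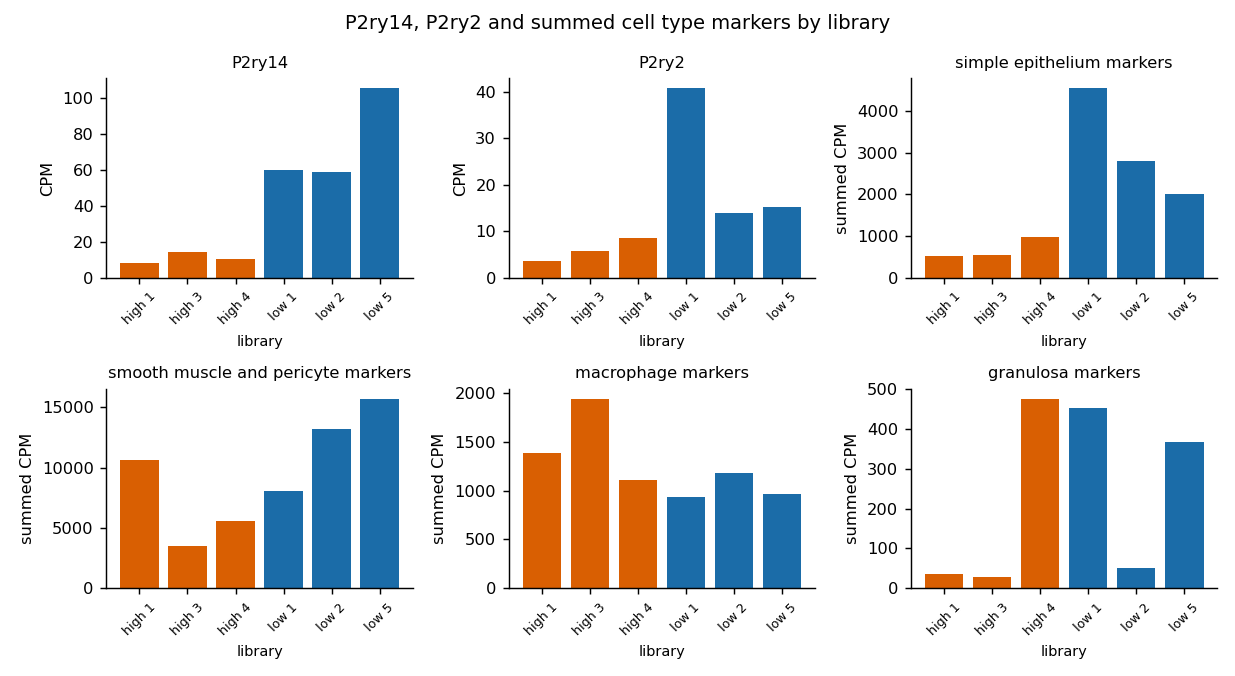
CPM of P2ry14 and P2ry2 and summed CPM of 4 marker lists, 1 bar per library (orange high, blue low litter size), each panel on its own scale from 0. The simple epithelium sum separates the groups (528 to 981 against 2015 to 4564 CPM), while the granulosa sum is low in high 1, high 3 and low 2 of both groups.

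The other genes of nucleotide signalling were described by list, and in each of the lists below 0 genes passed with edgeR. Of 12 ectonucleotidases, all tested, 5 had positive and 7 negative log2 fold changes, with a median of -0.16 against 0.068 for all genes. At an unadjusted p under 0.05 edgeR gave 2 higher and 4 lower, against 6.56% and 7.82% of all genes, and DESeq2 called 5, against 6.56%. The groups of 7 of the 12 did not overlap, 3 higher and 4 lower in the high libraries, where 8.75% and 10.8% of all genes did so.

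Alpl, the tissue-nonspecific alkaline phosphatase that strips phosphates from nucleotides, had 11.8, 27.8 and 63.4 CPM in high-litter samples and 438, 354 and 248 CPM in low-litter libraries (log2 fold change -3.33, SE 0.64, edgeR adjusted p = 0.162, and -4.16 without high 4). Entpd8, which cuts ATP and UTP, had 0.358, 2.43 and 3.02 against 56.8, 58.5 and 5.07 CPM (-4.37, SE 1.12, adjusted p = 0.206 with edgeR). Low 5 was far below the other two low libraries in Entpd8, although it had the most P2ry14. Ada, which deaminates adenosine, had 12.9 ± 4.13 and 80.8 ± 64.8 CPM (SD, n = 3; log2 fold change -2.65, and -1.76 without low 1, its highest library). Enpp3, which cleaves nucleotides and UDP-sugars, the ligands of P2ry14, had 78.3 ± 41.1 and 311 ± 128 CPM (SD, n = 3; log2 fold change -1.99). In the other direction, Enpp2, which makes lysophosphatidic acid, had 176 ± 134 and 39.1 ± 17.1 CPM (SD, n = 3; log2 fold change 2.17). Enpp1, which also cleaves UDP-sugars, overlapped between the groups (0.85, 95% interval -0.05 to 1.76), as did Entpd1, the CD39 enzyme of vessels and leukocytes (-0.19), and Nt5e, the CD73 enzyme that makes adenosine (-0.71). Without the 3 libraries of few ovarian transcripts Alpl had -2.46, Entpd8 -3.38, Ada -2.46 and Enpp3 -1.71, and in these alone -4.19, -5.43, -2.33 and -2.42.

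UDP-sugars, the ligands of P2ry14, are made from sugar phosphates and UTP. The 12 genes tested were of their synthesis and use, glycogen synthesis included. Of these, 6 had positive and 6 negative log2 fold changes (median -0.20), 2 had an unadjusted p under 0.05 with edgeR, a share near the 14.4% of all genes, and 0 were called by DESeq2. The 2 genes belong to the route to UDP-N-acetylglucosamine. Uap1, its last enzyme, had 44.2, 81.6 and 56.6 CPM in high-litter samples and 148, 117 and 93.1 CPM in low-litter libraries (log2 fold change -0.98, SE 0.30, edgeR adjusted p = 0.259). Gfpt1, its first and rate-limiting enzyme, had 139, 121 and 170 against 347, 246 and 183 CPM (-0.85, SE 0.30, adjusted p = 0.301 with edgeR). The groups of neither overlapped. In the list, 3 of the 12 genes had groups that did not overlap, all lower in the high libraries, against 10.8% of all genes. Ugp2, which makes UDP-glucose, had 170 ± 27.7 and 145 ± 25.1 CPM (SD, n = 3; log2 fold change 0.23, 95% interval -0.31 to 0.77), and Ugdh, which turns it into UDP-glucuronate, had -0.43 (95% interval -1.12 to 0.26).

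Of 9 genes of nucleotide release, 7 were tested and 0 had an unadjusted p under 0.05 with edgeR, nor did DESeq2 call any (0). Gja1, a connexin, had the highest counts, with 281 ± 142 and 448 ± 196 CPM (SD, n = 3; log2 fold change -0.67), the channel gene Panx1 had -0.52 and the vesicular nucleotide transporter Slc17a9 -1.11. All 7 P2X channels, the ion channels opened by ATP, were tested, with 5 positive and 2 negative log2 fold changes (median 0.34). P2rx4 and P2rx7 had 49.0 ± 11.3 and 36.7 ± 7.21 CPM in high-litter samples and 38.7 ± 5.50 and 41.1 ± 11.6 CPM in low-litter samples (SD, n = 3). P2rx3, a channel of sensory neurons, had 11, 50 and 13 counts in high-litter samples and 4, 1 and 3 counts in low-litter libraries (log2 fold change 3.38, SE 0.95, edgeR adjusted p = 0.229). High 3 was far above the rest, and the log2 fold change was 2.15 without it and 1.88 without the 3 libraries of few ovarian transcripts.

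Of the 4 adenosine receptors, 1 had groups that did not overlap, against 19.5% of all genes. Adora1, the inhibitory A1 receptor that is common in fat cells, had 17.7, 109 and 50.03 CPM in high-litter samples and 7.45, 17.0 and 17.7 CPM in low-litter libraries (log2 fold change 2.06, SE 0.68, edgeR adjusted p = 0.28, DESeq2 adjusted p = 0.0363). It was 1.27 without high 3. High 1 stood just above the highest low library. Adipocyte markers (9, all detected) summed to 2757, 23410 and 2155 CPM in high-litter samples and 296, 3148 and 818 CPM in low-litter libraries, highest in high 3 as was Adora1, and their part was not tested. Adora2a had a log2 fold change of 1.87, of 0.66 without high 3 and of -0.20 without the 3 libraries of few ovarian transcripts. Adora2b and Adora3 had 0.71 and -0.07.

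The G proteins and effectors that P2Y receptors use (17 tested, 12 positive, 5 negative, median 0.40) held 5 genes with an unadjusted p under 0.05 with edgeR, against 14.4% of all genes, and DESeq2 called 3, against 6.56%. The groups of 9 of the 17 did not overlap, 7 higher and 2 lower in the high libraries, against 8.75% and 10.8% of all genes. The inhibitory G protein gene Gnai1, of the class P2ry14 couples to, had 117, 409 and 75.2 CPM in high-litter samples and 15.4, 53.5 and 30.9 CPM in low-litter libraries (log2 fold change 2.59, SE 0.76, edgeR adjusted p = 0.245, DESeq2 adjusted p = 0.00845), the reverse of P2ry14 and highest in high 3, without which it was 1.53. Gnai2 and Gnai3, the other inhibitory subunits, had -0.14 and -0.19, with intervals of -0.88 to 0.60 and -0.76 to 0.38. Plcb4, a phospholipase C, had 62.4 ± 7.53 and 24.8 ± 7.59 CPM (SD, n = 3; log2 fold change 1.33, edgeR adjusted p = 0.162), and Gna12 had 0.64. Itpr3, the calcium release channel common in epithelia, had 45.2 ± 8.84 and 109 ± 49.4 CPM (SD, n = 3; log2 fold change -1.27), with groups that just overlapped.

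**Figure D5:**
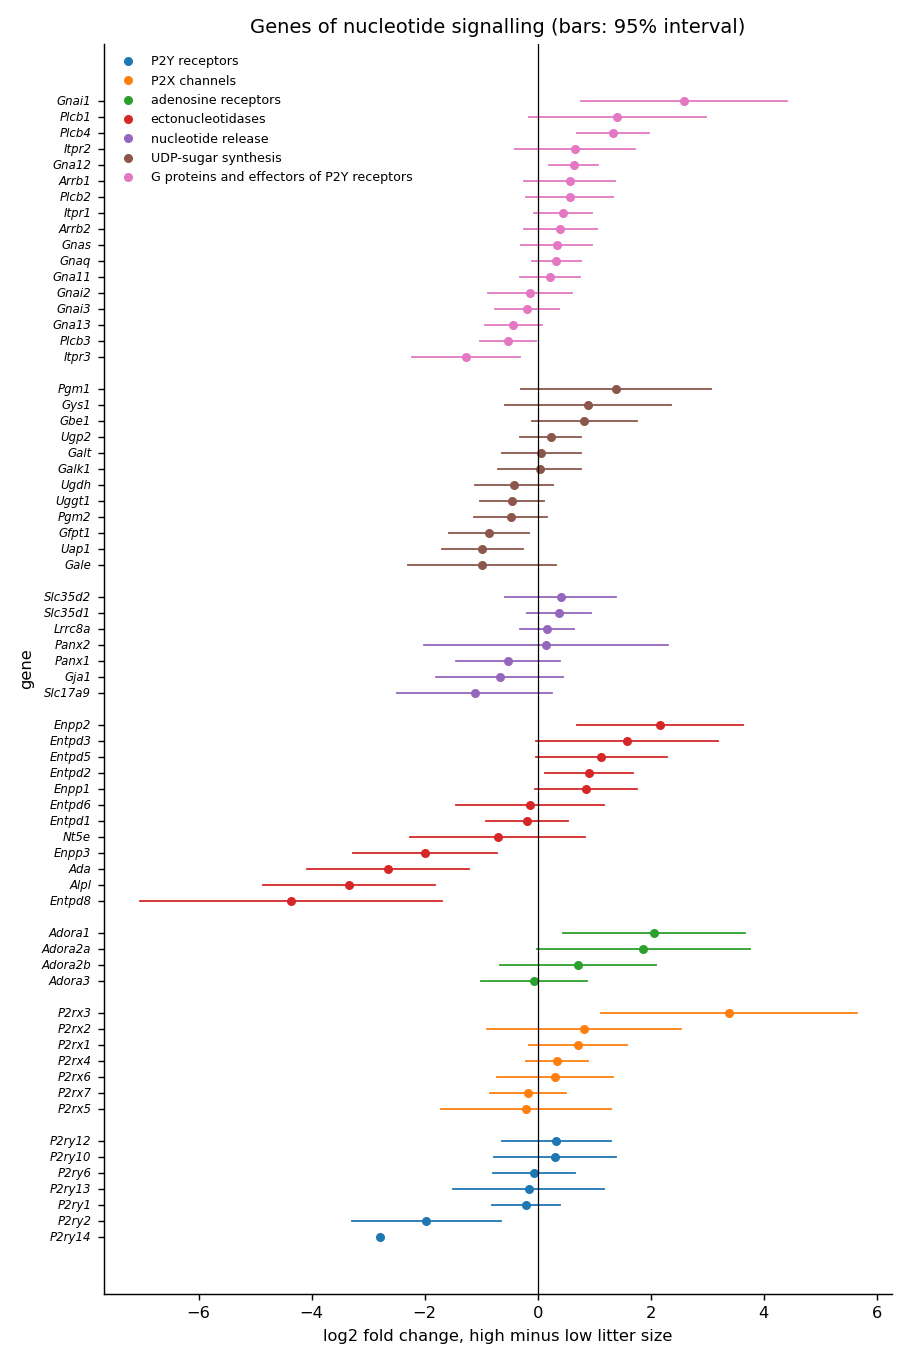
Fitted log2 fold change, high minus low litter size, of the tested genes of 7 lists of nucleotide signalling, with 95% intervals as bars except for P2ry14. P2ry14 (-2.80) and P2ry2 (-1.97) have lower values than the other tested P2Y receptors (-0.20 to 0.33), and Entpd8 (-4.37) and Alpl (-3.33) lie at the low end.

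Receptors related to the P2Y family by sequence gave 12 positive and 4 negative log2 fold changes among 16 tested of 18 (median 0.47), with 2 at an unadjusted p under 0.05 with edgeR, a share below the 14.4% of all genes. F2rl1, the protease-activated receptor of epithelia, had 7.72, 5.87 and 12.7 CPM in high-litter samples and 38.7, 30.3 and 23.7 CPM in low-litter libraries (log2 fold change -1.81, SE 0.36, edgeR adjusted p = 0.162). Ptafr, the receptor of platelet-activating factor, had 21.1, 32.2 and 18.9 against 13.1, 10.9 and 8.54 CPM (1.15, SE 0.30, adjusted p = 0.214 with edgeR). DESeq2, which called 6.56% of all genes, called both, with adjusted p of 0.000736 and 0.0193. In neither did the groups overlap, and they were the 2 such genes among the 16 tested, against 19.5% of all genes.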

How the data were processed

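Polyadenylated RNA of 6 samples was analysed, with litter size groups from the labels. The authors deposited estimated counts per gene, all whole numbers; they were read as kallisto estimates after rounding, a step no source describes. Trim Galore, kallisto, DESeq2 and GRCm38 appear in the submitters' processing notes, while versions and the annotation release are not given in the sources used here. Symbols were matched for 35948 of 36727 genes, and coordinates and lengths are from GENCODE M21 on GRCm38.

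Counts were filtered with filterByExpr (minimum count 10, minimum total 15), which left 16455 genes, scaled by TMM and fitted with edgeR 4.0.16 (R 4.3.3; glmQLFit and glmQLFTest), with Benjamini-Hochberg adjustment over all genes and a threshold of 0.05. Standard errors and 95% intervals were derived from its F statistic. A TMM-scaled total of 16018569 to 25657311 counts underlies each CPM. Precision is limited by 3 samples a group. DESeq2 1.42.0 and limma 3.58.1 (voom) were alternatives, and 822 undefined adjusted p-values of DESeq2 stayed undefined. The fit was tested on simulated data.

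Members, gene lists and motifs were chosen with earlier results of these data known. Named were the members, up to 4 genes of smallest p of each list, and the 5 genes most like P2ry14 and most like P2ry6, the other member of highest mean CPM per kb over the 6 libraries. Gpr171, Enpp1, Enpp2, Entpd1, Nt5e, Ugp2, Ugdh, P2rx7, Gnai2, Gnai3 and P2ry10b were chosen after their values were seen, for their role or place. Libraries of few ovarian transcripts were those with Inha under 100 counts, set after the data were seen. Sequences are from RefSeq. log2 CPM used a prior count of 2.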

Additional observations from a re-analysis of the deposited data

How the results depend on the processing

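Genes called numbered 1 in the edgeR fit of all 6 libraries, 1026 with DESeq2, 2 with library totals alone, 3 with limma voom and 0 to 1 with each library left out. In fits added after the data were seen, with the 3 libraries of few ovarian transcripts left out or used alone, edgeR called 0 (1742 and 974 at an unadjusted p under 0.05), and 1 library then stands alone in a group and is assumed to vary like the others. The cause was not tested. The log2 fold change of P2ry14 ran from -3.05 to -2.44 over 14 alternatives, with a sign fixed by the choice of the gene. The mean rank of P2ry14 per kilobase in the high group was 2.33 and 5.67 with the union of exons. Signs turned for P2ry6 (-0.33 to 0.085 with each library left out), P2ry13 (-0.82 to 0.20), P2rx2 (-0.19 to 1.2, and -0.21 with the 3 libraries left out), Adora2a (-0.20 with the 3 left out), Adora3 (-0.23 to 0.14, and 0.011 with the 3 left out) and Gpr171 (-0.26 to 0.46, and -0.11 in the 3 alone). Of 38 genes followed through the alternatives, 32 kept their sign in all. The 38 include P2ry14, and those besides the P2Y members were mostly taken for the smallest p of their lists in these data. The count is thus a description of chosen genes and no measure of how stable signs are. No paired analysis was possible because replicate 1 alone occurs in both groups. For P2ry4 the depth limits what can be seen, and for P2ry12 and P2ry13 both the depth and the spread between libraries do.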

Other observations

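The pattern of P2ry6, the UDP receptor, was nearly flat, and the 5 genes most like it were Nagk, Pef1, Pgls, Atg101 and Angel2, within 0.059 to 0.074 log2 units. Nagk, a kinase that salvages N-acetylglucosamine, had 24.5, 40.7 and 24.9 CPM in the high and 28.2, 37.6 and 30.6 CPM in the low libraries, with high 3 on top as for P2ry6.

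The genes most like P2ry2, a query chosen after its values were seen, were Ezr, Cp, Noxa1, Igsf5 and Ttc39a, at 0.17 to 0.28 log2 units. Ezr, the ezrin of microvilli, had 71.8, 87.3 and 161 CPM in the high and 674, 277 and 239 CPM in the low libraries. As for P2ry2, the lowest value was in high 1 and the highest in low 1. Cp, the copper protein ceruloplasmin, had 122, 218 and 336 CPM in the high and 1254, 668 and 596 CPM in the low libraries. None of these genes is among the 5 most like P2ry14, which was highest in low 5. These genes were picked for their likeness, so their group difference is a description.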
